A study of Homo sapiens with 3 samples.

Results

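The SOX4 summits of chromosome 5 in BT549 cells were all rows of the 3 deposited summit lists that lie on chromosome 5, 587 of 7511 summits in all. BT549 is an established human triple-negative breast cancer (TNBC) cell line, here at passage 5 in each library, and SOX4 is a transcription factor of the high-mobility-group family. The 3 chromatin immunoprecipitation sequencing (ChIP-seq) libraries form 1 group, replicates 1, 2 and 3, made with 1 Abcam SOX4 antibody. No treatment, input or IgG library was analysed here, and whether each library had its own culture is not labelled, so their spread may be technical. A summit is the 1-bp position where reads pile up highest within a peak. Chromosome 5 had 93 of them in replicate 1, while replicate 2 had 116 and replicate 3 had 378. The short arm, 5p, was taken as everything at or below position 48800000 on GRCh38 and the rest as the long arm, 5q. On that division 5p held 17, 18 and 80 summits and 5q held 76, 98 and 298.

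SOX proteins bind the minor groove of DNA through the high-mobility-group box, at short cores such as ACAAAG and AACAAT, and bend it. SOX4 is known for roles in epithelial to mesenchymal transition and in Wnt and TGF-beta signalling in breast cancer. Chromosome 5 carries several genes of those pathways, among them APC, LOX and TCF7, as well as RICTOR and TERT on 5p and the cytokine and clustered protocadherin genes on 5q.

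The promoters below belong to genes where summits of at least 2 libraries met at a transcription start. Of 13 promoter windows that held such a site, all of 3 libraries are printed, and APC alone of those of 2 libraries. These promoters do not stand for the sequence of the other sites. Each is the RefSeq promoter window (GRCh38.p14) of 250 bases before and 50 from the start onwards, written 5′ to 3′ on the strand of the gene. Capitals mark the stretch from the first to the last summit, as far as the window reaches, and the start is base 251. RICTOR lies at chr5:39074350-39074649 on the minus strand, STARD4 at chr5:111512486-111512785 on the minus strand and NREP at chr5:111757680-111757979 on the minus strand. C5orf24 lies at chr5:134845718-134846017, SPDL1 at chr5:169583523-169583822 and the second listed start of APC at chr5:112737635-112737934, all on the plus strand.
RICTOR: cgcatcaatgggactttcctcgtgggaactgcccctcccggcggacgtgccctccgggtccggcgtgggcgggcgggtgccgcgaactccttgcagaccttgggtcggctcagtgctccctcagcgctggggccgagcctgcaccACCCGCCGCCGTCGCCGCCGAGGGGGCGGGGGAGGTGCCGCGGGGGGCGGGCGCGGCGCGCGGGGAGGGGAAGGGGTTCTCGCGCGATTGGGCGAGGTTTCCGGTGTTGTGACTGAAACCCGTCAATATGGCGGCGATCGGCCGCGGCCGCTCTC
STARD4: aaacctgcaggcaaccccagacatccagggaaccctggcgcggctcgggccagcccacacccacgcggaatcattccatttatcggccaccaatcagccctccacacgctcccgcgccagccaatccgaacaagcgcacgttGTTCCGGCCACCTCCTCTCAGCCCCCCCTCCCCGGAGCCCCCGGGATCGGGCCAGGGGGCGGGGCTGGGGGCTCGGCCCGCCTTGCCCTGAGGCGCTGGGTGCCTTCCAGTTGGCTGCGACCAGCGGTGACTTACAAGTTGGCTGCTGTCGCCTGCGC
NREP: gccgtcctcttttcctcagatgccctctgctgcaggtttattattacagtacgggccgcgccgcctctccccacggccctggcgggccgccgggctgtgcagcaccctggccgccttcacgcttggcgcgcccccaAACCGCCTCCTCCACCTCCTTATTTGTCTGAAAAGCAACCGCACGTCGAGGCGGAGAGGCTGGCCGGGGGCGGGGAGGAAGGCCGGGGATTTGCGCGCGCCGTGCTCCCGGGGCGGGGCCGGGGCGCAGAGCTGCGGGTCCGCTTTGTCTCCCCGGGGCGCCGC
C5orf24: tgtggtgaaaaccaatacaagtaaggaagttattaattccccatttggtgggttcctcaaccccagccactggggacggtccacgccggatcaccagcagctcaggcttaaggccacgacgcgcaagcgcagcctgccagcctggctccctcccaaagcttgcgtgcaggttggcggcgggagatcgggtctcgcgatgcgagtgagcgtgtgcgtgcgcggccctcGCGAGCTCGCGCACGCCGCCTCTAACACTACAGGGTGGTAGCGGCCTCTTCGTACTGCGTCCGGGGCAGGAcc
SPDL1: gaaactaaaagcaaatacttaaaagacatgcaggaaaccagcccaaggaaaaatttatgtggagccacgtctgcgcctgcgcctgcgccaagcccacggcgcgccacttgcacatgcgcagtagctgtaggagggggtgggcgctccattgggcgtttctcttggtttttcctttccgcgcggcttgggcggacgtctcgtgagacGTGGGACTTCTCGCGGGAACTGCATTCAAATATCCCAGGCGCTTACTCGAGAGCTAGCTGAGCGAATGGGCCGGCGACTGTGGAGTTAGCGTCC
APC: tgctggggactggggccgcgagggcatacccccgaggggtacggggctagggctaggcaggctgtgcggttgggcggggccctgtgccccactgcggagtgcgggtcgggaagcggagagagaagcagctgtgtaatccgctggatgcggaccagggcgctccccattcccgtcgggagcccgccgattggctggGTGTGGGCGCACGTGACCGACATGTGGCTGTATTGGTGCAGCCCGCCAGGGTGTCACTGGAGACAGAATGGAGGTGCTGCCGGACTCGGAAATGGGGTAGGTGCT

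These windows were rich in G and C, with 74% in RICTOR, 69% in STARD4, 71.3% in NREP, 63.3% in C5orf24, 57.3% in SPDL1 and 68% in APC. The SOX cores ACAAAG and AACAAT were searched on both strands. NREP alone of the 6 held one, ACAAAG read on the other strand, starting at base 279 and within the stretch between its summits. GGGCGG, the core of the GC box bound by SP-family factors, had 3 non-overlapping matches over both strands in RICTOR, 2 in NREP and 1 each in STARD4, SPDL1 and APC.

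Over the chromosome, 101 listed coding promoter windows held a summit of any library. ACAAAG on either strand was in 7.92% of them (exact 95% interval 3.48 to 15.01%), against 14.3% of all 1088 coding windows of chromosome 5 and 13.6% of 22183 coding windows genome-wide. AACAAT was in 5.94%, against 8.46% and 7.43%. The longer AACAAAG, which contains ACAAAG, was in 1.98%, against 4.32% and 4.30%. GGGCGG was in 68.3% (58.3 to 77.2%), against 53.5% and 56.3%, and the ETS-type core CCGGAA in 33.7% (24.6 to 43.8%), against 19.5% and 21.2%. The median G and C content was 66% in the windows with a summit and 61.3% in all coding windows of the chromosome. Among the 13 windows that held a region of at least 2 libraries, ACAAAG was in 2 (15.4%, 1.92 to 45.4%), those of NREP and RHOBTB3, AACAAT was in 1, that of SLF1, and GGGCGG was in 10. These shares describe letters in a window of 300 bases and say nothing of whether SOX4 was bound there.

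Chromosome 5 held a larger share of the summits than of the assembled length or of the coding genes. It held 7.36% of the assembled summits in replicate 1 (exact 95% interval 5.98 to 8.94%), 7.30% in replicate 2 (6.07 to 8.70%) and 8.78% in replicate 3 (7.95 to 9.67%), a mean of 7.82% ± 0.838 (SD, n = 3). Its share of the assembled length was 5.88% and of the coding genes 4.51%. The density on chromosome 5 was 0.512, 0.639 and 2.08 summits per Mb in replicates 1 to 3, against a median of 0.280, 0.306 and 1.20 in the other 21 autosomes. It ranked 5, 4 and 3 by density among the 22 autosomes, behind chromosomes 8 and 9 in each library. Summits over 1 kb from coding gene ends, away from most promoters, were also dense, with 0.331, 0.446 and 0.948 per Mb on chromosome 5 and a median of 0.155, 0.182 and 0.478 in the other autosomes.

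Per Mb, 5p carried fewer summits than 5q in each library. The density was 0.348 per Mb on 5p and 0.573 on 5q in replicate 1, 0.369 and 0.739 in replicate 2, and 1.64 and 2.25 in replicate 3. The mean difference, 5p minus 5q, was -0.40 ± 0.193 summits per Mb (SD, n = 3; two-sided exact permutation test over libraries, p = 0.25, adjusted p = 0.5 over 4 arm comparisons). With 3 libraries 0.25 is the smallest p this test can give, so no arm difference could pass a threshold of 0.05. Genes are thinner on 5p, which has 26.9% of the chromosome's length but 18.5% of its 904 coding genes. Per 100 coding genes the order differed between libraries. There were 10.2 summits on 5p and 10.3 on 5q in replicate 1, 10.8 and 13.3 in replicate 2, and 47.9 and 40.4 in replicate 3, a mean difference of 1.61 ± 5.22 (SD, n = 3; exact permutation p = 1).

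**Figure D1:**
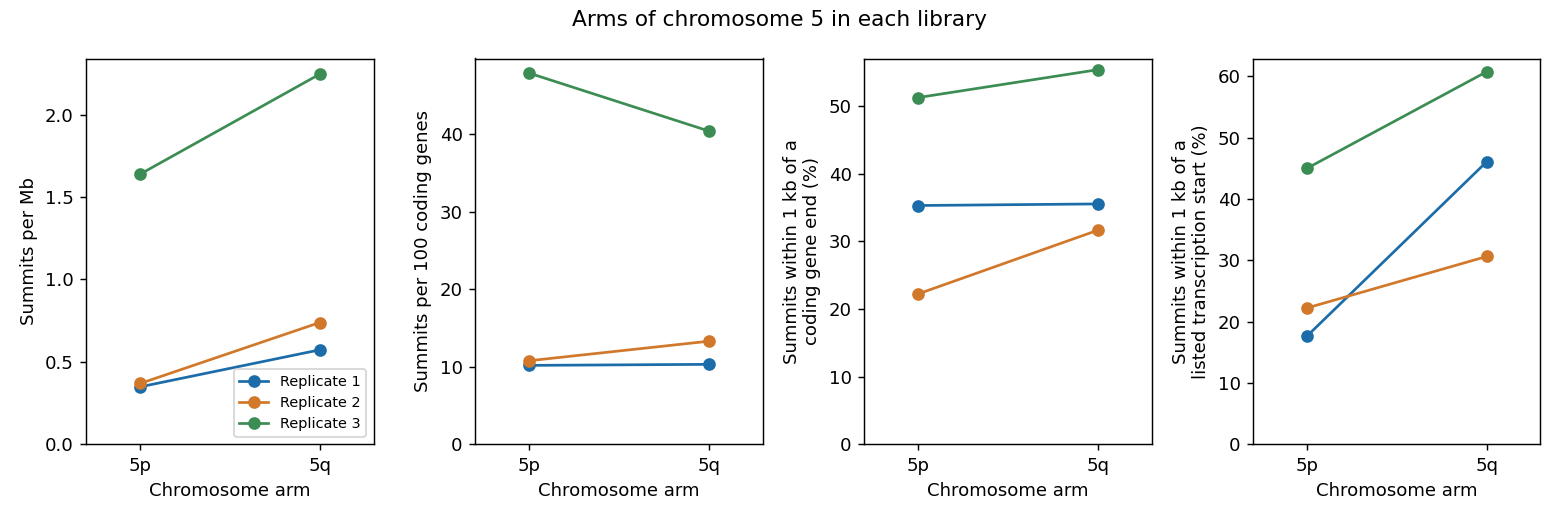
Values of 5p (left in each panel) and 5q (right) in each library, with 1 line per library. From left to right the panels give summits per Mb, summits per 100 coding genes, the percentage of summits within 1 kb of an end of a coding gene and the percentage within 1 kb of a listed transcription start. Density and share near starts are lower on 5p in all 3 libraries, while summits per 100 genes are higher on 5p in replicate 3 alone.

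In bins of 10 Mb, the bin from 40 to 50 Mb held the largest mean share of the chromosome's summits, 11.1% ± 4.14 (SD, n = 3), with 13, 15 and 24 summits in replicates 1 to 3. The bin from 70 to 80 Mb followed with 10.2% ± 1.61 and 11, 10 and 38 summits, and it was the highest in replicate 3. The bin from 20 to 30 Mb, with 5 coding genes, held 3, 3 and 6 summits. The bin from 140 to 150 Mb, which has 138 coding genes and includes the clustered protocadherins, held 3, 7 and 24. Summed over libraries, that is 24.6 summits per 100 coding genes in the gene-rich bin, the lowest of the 19 bins, and 240.0 in the gene-poor one, the highest.

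**Figure D2:**
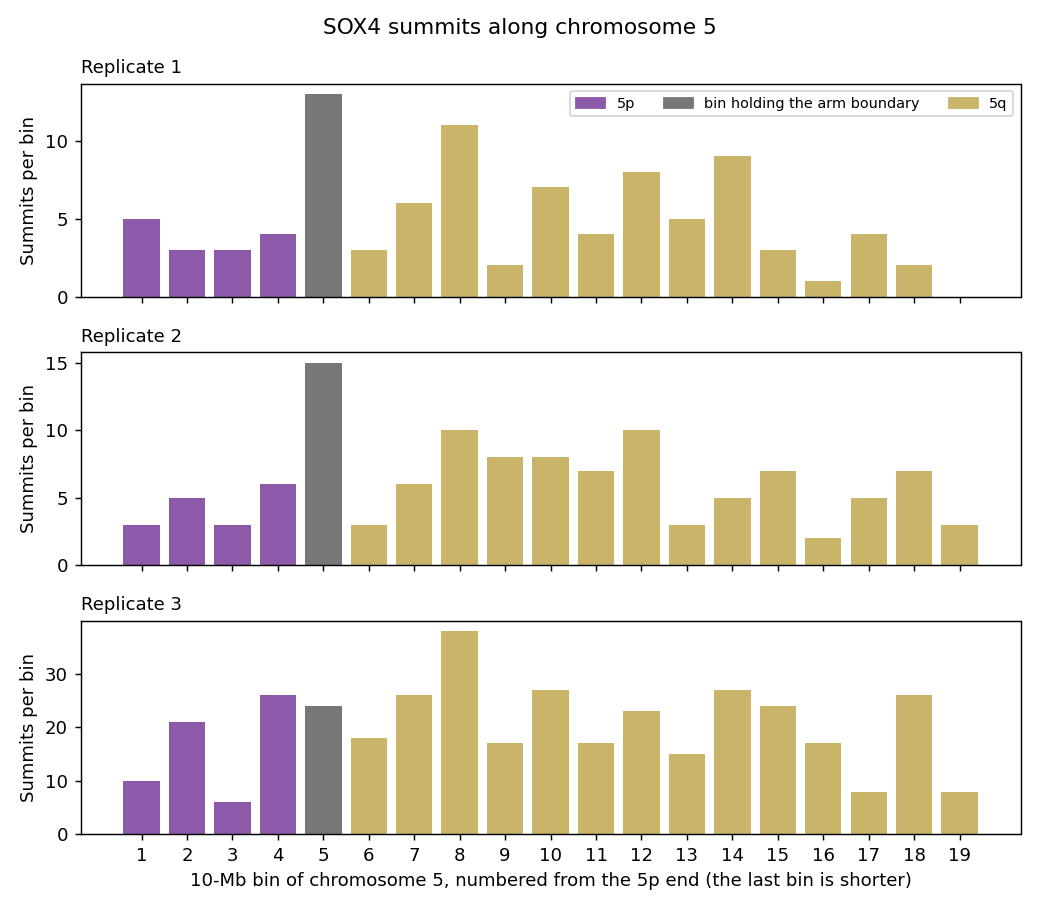
Number of summits in each 10-Mb bin of chromosome 5, numbered from the end of 5p, with 1 panel per library and bars coloured by arm. Bin 5, which holds the arm boundary, is the highest in replicates 1 and 2 with 13 and 15 summits, and bin 8 is the highest in replicate 3 with 38.

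Most summits of the bin from 40 to 50 Mb in replicates 1 and 2 lay in 1 short block on the 5q side of the division. The block runs from 49599808 to 49666438, 66.6 kb, and holds no annotated gene of any kind. It starts 800 kb past the division, within the stretch from 46 to 51 Mb set apart here as pericentromeric, that is around the centromere. It lies 730 kb before EMB, which encodes the membrane glycoprotein embigin and is its nearest coding gene. The block held 11 summits of replicate 1 (11.8% of its chromosome 5 summits), 14 from replicate 2 (12.1%) and 7 from replicate 3 (1.85%, exact 95% interval 0.748 to 3.78%). Its 32 summits formed 17 regions, where summits at most 200 bp apart are joined, and 12 of them came from at least 2 libraries. The summits nearest the division on the 5p side were at 45499375, 44809064 and 44665391, all of replicate 3 and with scores of 4.23, 5.66 and 5.68. Those nearest on the 5q side were the first 3 of the block, at 49599808, 49599842 and 49600534, scoring 9.89, 4.92 and 14.4.

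The highest scores of the chromosome were in this block. Its sequence was not read, and how reads that match several places were treated is not given, so these sites are uncertain. The score is the authors' own −log10 of a p or q value, ranked, filtered and compared between arms within each list. Lists are given side by side with no comparison of their levels. At 49666425 to 49666438 the libraries scored 56.4, 53.1 and 34.2, the highest of chromosome 5 in replicates 1 and 2. At 49658538 to 49658545 they scored 33.7, 34.0 and 23.6, and at 49600534 to 49600691 they scored 14.04, 21.1 and 14.4. Replicates 1 and 3 also met at 49601754 and 49601756 with 46.4 and 37.6, while replicate 2 had a summit 203 bp further on, at 49601959, scoring 39.1. In replicate 1 the block's median score was 14.04, against 5.51 on the rest of chromosome 5. The same medians were 11.5 and 5.11 in replicate 2 and 14.4 and 5.60 in replicate 3. The pair of sites at 49658538 and 49666425 had their 3 summits within 8 and 14 bp, and the region of all libraries at 49600534 spanned 158 bp. The 10 regions of 3 libraries within 1 kb of a gene end or start spanned 71 to 326 bp, with a median of 189.5 bp, and the 6 others spanned 9 to 135 bp, with a median of 116.5 bp.

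**Figure D3:**
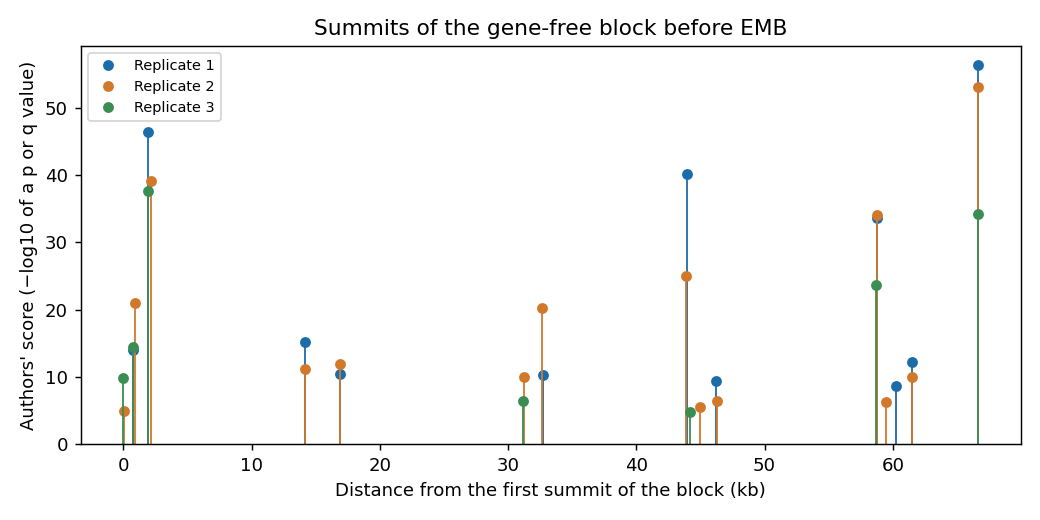
Authors' score of each summit in the block of 66.6 kb without annotated genes before EMB, plotted by distance in kb from its first summit, with 1 colour per library. The 3 libraries reach 56.4, 53.1 and 34.2 at the last site, and several sites are held by replicates 1 and 2 without replicate 3.

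Scores above 20 were found at 19 summits of chromosome 5: replicate 1 had 6, replicate 2 had 9 and replicate 3 had 4. That is 6.45%, 7.76% and 1.06% of its summits, against 6.33%, 4.6% and 1.28% over all assembled chromosomes. One of the 19 was on 5p and 18 on 5q, and 13 were in the block, 4 in replicate 1, 6 in replicate 2 and 3 in replicate 3. The others were at 4 sites. On 5p it was the site inside CEP72, a centrosome gene, at 628601, with 23.4 in replicate 2. On 5q they were inside COL23A1, a collagen gene, inside BTNL9, a butyrophilin-like gene, and 3.27 kb from MSH3, a mismatch repair gene. Listed transcription starts were over 1 kb away from all 19.

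Median scores of the arms were close. The median was 6.40 on 5p and 5.88 on 5q in replicate 1, 5.57 and 5.56 in replicate 2, and 5.26 and 5.69 in replicate 3, with the block counted in 5q. The mean difference in medians, 5p minus 5q, was 0.03 ± 0.476 (SD, n = 3; two-sided exact permutation p = 0.75, adjusted p = 1). Without the summits between 46 and 51 Mb the 5q medians were 5.48, 4.87 and 5.67. The highest 5p scores were 16.1 in replicate 1, at RICTOR, and 23.4 and 15.2 in replicates 2 and 3, both inside CEP72.

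Sharing between libraries on chromosome 5 was near that of the other chromosomes. Summits were taken as shared if a different library's summit was at most 200 bp away. On chromosome 5 this held for 46 of 93 summits in replicate 1 (49.5%), for 49 of 116 in replicate 2 (42.2%) and for 53 of 378 in replicate 3 (14.02%). Over all assembled chromosomes it held for 50.2%, 41.0% and 16.9%. On 5p the shared counts were 11 of 17, 6 of 18 and 11 of 80, and on 5q 35 of 76, 43 of 98 and 42 of 298. The mean difference in share, 5p minus 5q, was 2.59 ± 14.8 percentage points (SD, n = 3; exact permutation p = 1, adjusted p = 1), with 5p higher in replicate 1 alone. Within chromosome 5, shared and unshared summits had median scores of 7.60 and 5.20 in replicate 1, 7.63 and 4.65 in replicate 2, and 7.89 and 5.37 in replicate 3.

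Joined over libraries, the summits of chromosome 5 formed 502 regions, 98 on 5p and 404 on 5q. At least 2 libraries contributed to 64 of them, 12.7% (exact 95% interval 9.96 to 16.0%), against 14.4% over all assembled chromosomes. They were 11 on 5p (11.2%, 5.74 to 19.2%) and 53 on 5q (13.1%, 9.98 to 16.8%). Replicate 3 alone gave 324 of the 502 regions. All 3 libraries met at 19 regions, 3.78%, against 4.46% over all assembled chromosomes, 5 on 5p and 14 on 5q.

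Of the 5 regions of 3 libraries on 5p, those at RICTOR and TARS1 were at transcription starts. RICTOR encodes the scaffold that defines mTOR complex 2. Its summits lay at 39074439, 39074504 and 39074248 in replicates 1, 2 and 3, 40 and 105 bp upstream and 151 bp downstream of the start, with scores of 16.1, 9.55 and 9.75. Replicates 1 and 2 thus fell upstream of the RICTOR start and within the printed window, and replicate 3 fell downstream and past its end. TARS1 encodes a threonyl-tRNA synthetase, and its summits lay 39, 134 and 76 bp downstream of the start with scores of 6.40, 3.90 and 9.53.

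The other 5p regions of 3 libraries were away from starts. That inside CEP72 scored 12.4, 23.4 and 15.2 at 16.3 kb from a gene end, and that inside TRIO, a guanine nucleotide exchange factor gene, scored 10.2, 12.1 and 11.2 at 163 kb. The fifth, at 17599014 to 17599146 with 7.75, 9.92 and 9.76, was 1.25 kb from TAF11L10. TAF11L10 is 1 of 13 TAF11L coding genes in a cluster of 136.8 kb with similar names, where 1, 4 and 5 summits of replicates 1, 2 and 3 fell. How the authors' alignment treated reads that match several copies is not given in the sources used here, so these sites are uncertain.

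On 5q, 3 of the 14 regions of 3 libraries were in the block and 8 were at gene ends or starts. SPDL1 encodes spindly, which links dynein to kinetochores. Its summits lay 44 and 21 bp upstream of the start in replicates 1 and 2 and 140 bp downstream in replicate 3, with scores of 17.1, 9.51 and 8.95. STARD4, a cholesterol transfer protein gene, had them 127 bp downstream, 108 bp upstream and 6 bp upstream of its start, with scores of 12.7, 6.57 and 7.89. At SPDL1 the libraries fell on the same sides of the start as at RICTOR, and at STARD4 they did not.

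PLK2, a polo-like kinase gene, had summits 234, 149 and 41 bp downstream of its start, scoring 4.53, 9.23 and 10.1 in replicates 1, 2 and 3. SSBP2, which encodes a cofactor of LIM-domain transcription complexes, had them 297, 272 and 170 bp downstream, scoring 3.65, 4.36 and 7.50. At both genes all 3 libraries fell downstream of the start, while at SPDL1 and STARD4 they fell on both sides. SLC12A2, a sodium, potassium and chloride cotransporter gene, had its summits upstream, at 688, 566 and 375 bp, with scores of 11.8, 5.11 and 6.87, and replicate 3 had another 176 bp downstream, with 4.31. PURA, which encodes a single-stranded DNA-binding protein, had them 35, 24 and 204 bp from its nearer end, with 9.10, 10.1 and 5.69, and has no start in the promoter table.

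Distances to gene ends alone missed some of these sites. NREP, a gene of neuronal regeneration, has its region of 3 libraries 28.9 kb from the nearest gene end but 48.5 bp from a listed start inside the gene. The scores there were 4.31, 9.88 and 9.81. C5orf24 has its region 12.4 kb from a gene end and 12 bp from a listed start, with 6.86, 12.02 and 12.5. In MATR3, a nuclear matrix protein gene, summits of replicates 1 and 2 fell 77 and 131 bp upstream of a listed start and 19.5 kb from a gene end, with 17.04 and 9.18, and replicate 3 had one 137 bp downstream of that start, scoring 4.85. TNPO1, a nuclear import receptor gene, was reached in replicates 1 and 3, 89 and 138 bp downstream of its second start, scoring 5.48 and 7.64. At the first TNPO1 start replicates 1 and 2 had summits 315 and 24 bp upstream and replicate 3 had one 359 bp downstream, scoring 6.25, 7.61 and 8.17, too far apart to be joined. In all, 5 regions of at least 2 libraries were within 1 kb of a listed start and over 5 kb from every coding gene end.

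APC was the last such gene, and it showed summits at both of its listed starts. APC is a tumour suppressor that scaffolds the complex degrading beta-catenin in the Wnt pathway. Its listed starts are 30.4 kb apart, at 112707498 and 112737885. At the second, replicate 2 had a summit 55 bp upstream with a score of 5.72 and replicate 3 had one 66 bp downstream with 4.14. At the first, replicate 3 had a summit 12 bp upstream with 4.57. Replicate 1 had none within 5 kb of either start, and replicate 2 had 1 further summit 23.2 kb past the second start, scoring 5.57.

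The last 5q regions of 3 libraries were a site near MSH3, a site inside COL23A1 and a site with no gene. The site near MSH3, at 80651311 to 80651445, scored 24.8, 30.2 and 7.06. Replicate 3 had another summit nearer this gene, 174 bp downstream of the MSH3 start, scoring 7.24. The COL23A1 site at 178585692 to 178585700 lies 4.70 kb downstream of the start with scores of 25.3, 29.5 and 17.6. The site at 91280651 to 91280776, 87.9 kb from ARRDC3, scored 6.93, 3.99 and 8.24.

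**Figure D4:**
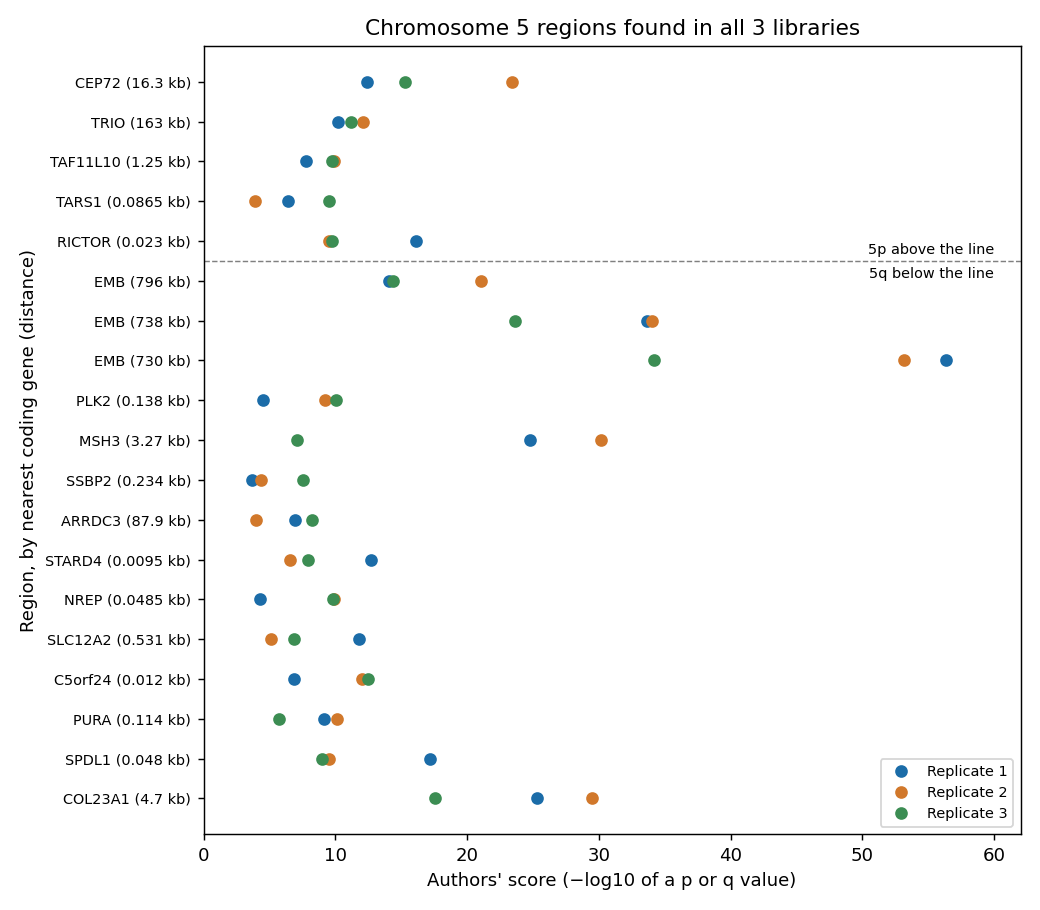
Authors' score in each library for the 19 chromosome 5 regions found in all 3 libraries, in order from the end of 5p, each labelled with its nearest coding gene and its distance in kb to the nearer of a gene end or listed start. The sites near MSH3 and COL23A1 and the last pair of the 3 near EMB exceed 20 in replicates 1 and 2, and the sites at starts such as RICTOR, SPDL1 and PLK2 stay at or below 17.1.

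Regions of exactly 2 libraries numbered 6 on 5p and 39 on 5q. On 5p, 4 of the 6 were within 1 kb of a coding gene end. PRKAA1, the gene of an AMP-activated kinase catalytic subunit, had summits 349 and 266 bp downstream of its start in replicates 1 and 3, scoring 5.60 and 5.69. MARCHF6, a ubiquitin ligase gene of the endoplasmic reticulum, had them 347 and 328 bp from its nearer end in the same libraries, scoring 6.66 and 6.19. C1QTNF3, a secreted C1q-family gene, had them 210 and 119 bp away, also in replicates 1 and 3, with 4.51 and 13.7, and TAF11L10 had them 230 and 200 bp away in replicates 2 and 3 with 3.68 and 5.56. The 2 further 5p regions, also of replicates 1 and 3, were 39.7 kb from LOC107987432 and 409 kb from CDH12, a cadherin gene. The former, at 10429 to 10500, scored 14.2 and 4.05 and holds the lowest summit position of the chromosome, at the end of 5p.

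On 5q the regions of 2 libraries nearest a gene end included GPBP1, a transcription factor gene, and DTWD2, a tRNA modification gene. Both were in replicates 1 and 3. GPBP1 had summits 25 bp upstream and 67 bp downstream of its start, scoring 6.23 and 6.32. BTF3, a nascent chain chaperone gene, had them 158 and 16 bp downstream of its start in the same libraries with 5.52 and 6.24. POLR3G, an RNA polymerase III subunit gene, had them 177 and 13 bp from its end in replicates 2 and 3, and KIAA0825 had them 27 and 172 bp downstream of its start in replicates 2 and 3.

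The remaining genes of that group were TENM2, WDR36 and RUFY1, with midpoints 150, 164 and 173 bp from a gene end. TENM2 encodes a teneurin of synaptic adhesion and had summits of replicates 1 and 3, scoring 4.08 and 5.49. WDR36, a gene of ribosomal RNA processing, had the lowest score of replicate 1 on the chromosome, 2.74, and 8.17 in replicate 3. RUFY1, an endosomal protein gene, had 4.44 in replicate 2 and 5.93 in replicate 3. DTWD2 scored 4.08 in replicate 1 and 9.26 in replicate 3.

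Some sites on 5q were shared by neighbouring genes. Of the 23 regions of at least 2 libraries within 1 kb of a 5q gene end, 6 were within 1 kb of ends of 2 or more coding genes, 26.1% (exact 95% interval 10.2 to 48.4%), against 21.99% of such regions on the other chromosomes. They were SGTB with NLN, MBLAC2 with POLR3G, KIAA0825 with SLF1, GIN1 with PPIP5K2, ATG12 with AP3S1, and SRFBP1 with LOX. On 5p the count was 0 of 6. Counting regions of any library, it was 2 of 43 on 5p (4.65%, 0.568 to 15.8%) and 34 of 193 on 5q (17.6%, 12.5 to 23.7%). On the other chromosomes it was 528 of 2589 (20.4%), so the 5q share was near theirs.

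Near gene ends, chromosome 5 as a whole was close to the other chromosomes. An end of a coding gene was within 1 kb for 35.5%, 30.2% and 54.5% of its summits in replicates 1 to 3, against 40.7%, 29.2% and 54.9% over all assembled chromosomes. On 5p the share was 35.3%, 22.2% and 51.2%, and on 5q 35.5%, 31.6% and 55.4%. The mean difference, 5p minus 5q, was -4.59 ± 4.61 percentage points (SD, n = 3; two-sided exact permutation p = 0.25, adjusted p = 0.5). The median distance to a coding gene end was 16.3 kb on 5p and 12.2 kb on 5q in replicate 1, 22.6 and 29.7 kb in replicate 2, and 0.874 and 0.560 kb in replicate 3. Those more than 50 kb away made up 41.2% on 5p and 36.8% on 5q in replicate 1, 44.4% and 44.9% in replicate 2, and 27.5% and 21.1% in replicate 3.

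The promoter table gave 1088 starts for 790 of the 904 coding genes of chromosome 5, and 180 of these genes have several. Within 1 kb of a listed start replicate 1 had 38 summits (40.9%), replicate 2 had 34 (29.3%) and replicate 3 had 217 (57.4%). By this measure 5p was further below 5q. The share was 17.6% on 5p and 46.1% on 5q in replicate 1, 22.2% and 30.6% in replicate 2, and 45.0% and 60.7% in replicate 3, a mean difference of -17.5 ± 10.1 percentage points (SD, n = 3; exact permutation p = 0.25). This measure was chosen after the data were seen, and the table covers 82.6% of the 5p genes and 88.5% of the 5q genes.

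Which side of a start the summits fell on differed between libraries. In replicate 1, 18 were upstream and 20 downstream with a median of 21.5 bp downstream. In replicate 2, 16 were upstream and 18 downstream with a median of 9.5 bp. In replicate 3, 67 were upstream and 150 downstream with a median of 119 bp, and 124 of the 217 lay in the first 300 bp after the start. At regions that held both libraries, replicate 3 was further downstream than replicate 1 in 10 of 17 and than replicate 2 in 10 of 17. Over all 17 pairs the median shift downstream was 49 bp from replicate 1 (-193 to 313 bp) and 30 bp from replicate 2 (-157 to 325 bp). With 1 library each, the shift of replicate 3 was not tested.

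**Figure D5:**
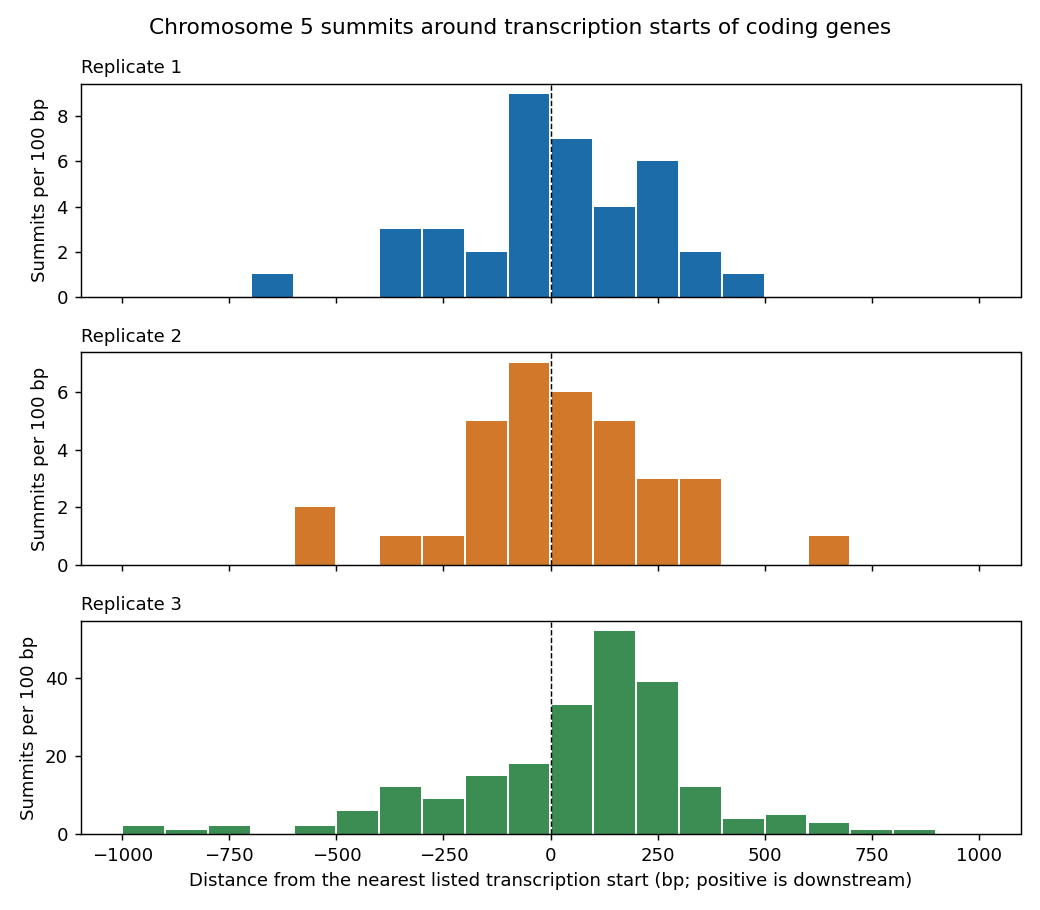
Number of chromosome 5 summits per 100 bp around the nearest listed transcription start of a coding gene, with 1 panel per library and positive distances downstream. Replicates 1 and 2 centre on the start with 9 and 7 summits in the 100 bp before it, and replicate 3 peaks 100 to 199 bp after it with 52.

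Counted by gene, 267 of the 904 coding genes of chromosome 5 had either end at most 5 kb from a summit in at least 1 library, 29.5% (exact 95% interval 26.6 to 32.6%). Over all assembled chromosomes the share was 17.8%. The counts were 46 of 167 genes on 5p (27.5%, 20.9 to 35.0%) and 221 of 737 on 5q (30.0%, 26.7 to 33.4%). With a region of at least 2 libraries, there were 41 genes on chromosome 5, 4.54% (3.27 to 6.10%), against 2.97% over all assembled chromosomes, 7 on 5p (4.19%) and 34 on 5q (4.61%). Replicate 3 decided most of these counts, since 248 of the 904 genes had one of its summits (27.4%, against 15.7% over all assembled chromosomes). The counts were 47 for replicate 1 (5.20%, against 3.69%) and 53 for replicate 2 (5.86%, against 3.36%). Without replicate 3, 80 genes had a summit of any library and 14 had a region of both others. All 3 libraries met near 14 genes as well, 1.55%, against 0.739% over all assembled chromosomes.

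Gene groups of the chromosome differed in how many members had a summit within 5 kb. They were chosen with earlier results of these data known, so their counts are descriptions. Of 33 genes around RICTOR on 5p, 14 had a summit of any library, against 29.5% of the chromosome's genes and 17.8% of all. They included RICTOR, TARS1, PRKAA1, RPL37, OSMR and NNT. A region of at least 2 libraries was near 3 of the 33, against 4.54% of chromosome 5 genes and 2.97% of all. RPL37, a ribosomal protein gene, had a replicate 3 summit 18 bp from its end scoring 5.69, and OSMR, the oncostatin M receptor gene, had one 75 bp upstream of its start scoring 5.44. The 26 genes around TERT, the telomerase catalytic subunit gene at the end of 5p, had 2 (7.69%, 0.946 to 25.1%), PDCD6 and SDHA. Both shared 1 replicate 3 summit at 271909 scoring 4.75.

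A list drawn up for cell cycle and DNA repair had a summit of any library at 22 of 30 genes, 21 with replicate 3. That is 73.3% (exact 95% interval 54.1 to 87.7%), against 29.5% of chromosome 5 genes and 17.8% of all coding genes. The lists here were chosen with earlier results of these data known, so their intervals are no test of enrichment. A region of at least 2 libraries was near 5 of the 30, among them CHD1, MSH3, PLK2 and SPDL1, against 4.54% of chromosome 5 genes and 2.97% of all. CCNH, the cyclin partner of CDK7, had summits of replicates 2 and 3, 71 bp upstream and 352 bp downstream of its start, scoring 4.65 and 8.26. CHD1, a chromatin remodeller gene, had them 154 and 311 bp upstream of its start with 5.61 and 7.85. Against the same 29.5% and 17.8%, a list drawn up for mRNA processing had a summit at 18 of 30 genes (60%, exact 95% interval 40.6 to 77.3%), 16 with replicate 3. Genes with a summit included POLR3G, SRFBP1, UTP15, SREK1, ETF1 and RBM22. The list also holds genes of other roles, such as POLR3G of RNA polymerase III, so its share is not that of mRNA processing genes alone. Ribosomal protein genes, cytosolic and mitochondrial, had 6 of the 8 found in the gene table (75%, exact 95% interval 34.9 to 96.8%), all from replicate 3. RPS14 had the highest score among them, 11.98, at 11 bp upstream of its start, and the others were RPL37, RPS23, MRPS30, MRPS27 and RPL26L1.

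The clustered protocadherins, neuronal adhesion genes in a stretch of 726.8 kb on 5q, had 2 of 53. PCDHB7 and PCDHB8 shared 1 replicate 3 summit scoring 4.38, the only summit in that stretch in any library. The cytokine cluster of 5q had 5 of 14, each from replicate 3: SLC22A4, KIF3A, RAD50, IRF1 and IL5. Its share was 35.7% (12.8 to 64.9%), an interval that holds both the 29.5% and the 17.8%. IRF1, an interferon-response factor gene, had its summit 280 bp downstream of the start with 3.92, and IL5 and RAD50 shared 1 summit, 424 and 262 bp from them, scoring 5.08. Of the 3 aminopeptidase genes, 2 had a summit (66.7%, 9.43 to 99.2%), too few genes to set against those shares. ERAP1, which trims peptides for MHC class I, and LNPEP were reached in replicates 2 and 3. ERAP1 had them at 216 and 515 bp and LNPEP at 10 and 741 bp. Those 2 genes shared 1 summit in each library, scoring 4.31 in replicate 2 and 5.29 in replicate 3, and these were too far apart to form 1 region. The shared summit of replicate 2 was also 5 bp downstream of the start of another coding gene, LOC124901030. Replicate 3 had a further summit inside ERAP1, 274 bp downstream of a listed ERAP1 start, scoring 7.12.

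Genes of Wnt signalling, mesenchymal state and matrix had 8 of 36, each with replicate 3. That is 22.2% (exact 95% interval 10.1 to 39.2%), an interval that holds both the 29.5% of chromosome 5 genes and the 17.8% of all coding genes. LOX, which encodes the collagen-crosslinking enzyme lysyl oxidase, was the member with a region of at least 2 libraries. Its summits lay 291 and 276 bp downstream of its start in replicates 1 and 3, scoring 5.77 and 6.98, and SRFBP1 shares that site. HBEGF, an epidermal growth factor receptor ligand gene, had a replicate 3 summit 140 bp upstream of its start with 5.59. ITGA1, an integrin gene, had one 203 bp downstream with 4.77, and PIK3R1, a regulatory subunit of phosphoinositide 3-kinase, one 287 bp upstream with 6.51. Respiratory genes had 2 of 9, NNT and SDHA.

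A segment of 5q from 69 to 72 Mb, picked after its values were seen, held 3, 5 and 18 summits in replicates 1, 2 and 3, with 15 of the 26 over 50 kb from a coding gene end. At 70719660 replicate 3 scored 14.3, the highest summit of that library on 5q that no other library shared. The nearest coding gene was SERF1A, 181 kb away. The segment holds genes of similar names, GTF2H2 and GTF2H2C, and the pseudogene GTF2H2B. How reads that match several copies were treated is not given, so its sites are uncertain.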

How the data were processed

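SOX4 ChIP-seq was deposited as 1 list of summits for each of 3 BT549 libraries. Per the labels' protocols, chromatin was fixed with DSG and formaldehyde and paired reads of 36 bp were generated on a NextSeq. Per the submitters' processing notes, the tools were MACS2, BWA and SAMtools, without versions. The deposited score is −log10 scaled, from the p or the q value; which one is not given in the sources used here. Peak widths, read numbers and a control were not used, so the depth of each library is unknown. Intervals reflect counting error alone.

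The notes name hg19, but the contig names and positions are those of GRCh38. Genes and promoter windows came from RefSeq tables of GRCh38.p14. Chromosome length was taken as the highest annotated or observed position. Summits at most 200 bp apart were joined into regions. Region distances are from midpoints. Arm values were compared within each library by an exact two-sided sign-flip permutation test over the 3 libraries, with Benjamini-Hochberg adjustment over 4 comparisons. Shares have exact 95% binomial intervals (Clopper-Pearson). Alternatives changed the score minimum, the joining window, the distance, the bin width and list length, and left out single libraries or the summits from 46 to 51 Mb. The steps were tested on simulated data (Python 3.11.15, SciPy 1.17.1).

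The text names every region of 3 libraries and the 3 highest summits of each list. Of the regions of exactly 2 libraries, it names the 8 nearest a gene end on 5q and all 6 on 5p. It also names at most 6 members of each gene list, the summits either side of the arm boundary, and RICTOR, ERAP1 and SPDL1. MATR3, C5orf24 and other genes named for a listed start, BTNL9, SERF1A and the segment from 69 to 72 Mb were chosen after their values were seen. Members and lists were chosen with earlier results of these data known. Results for some genes are not reported here. No genome sequence was used here, so summits outside the promoter windows have no sequence.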

Additional observations from a re-analysis of the deposited data

How the results depend on the processing

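Between arms, the density and gene-end differences kept their direction in most settings. The score difference reversed in 2 settings and kept its sign in 4, and the sharing difference reversed in 4 and kept it in 5. The density difference between arms turned to 1.61 when counted per 100 coding genes. The score difference turned to -0.45 with only scores of at least 5, and ranged from -0.21 to 0.26 when 1 library was left out, with the negative value without replicate 1. The difference in sharing, 2.59 points, turned to -3.86 with only scores of at least 5, to -0.68 with a window of 500 bp and to -4.74 with 1000 bp. It ranged from -4.00 to 19.6 when 1 library was left out, negative without replicate 1. The share near gene ends and the density per Mb kept their sign in all other settings tried, as did -17.5 points for listed starts, which were added after the data were seen. The cause of the reversals was not tested.

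Chromosome 5 held 10.5% of the summits when chromosome 8 was left out of the denominator. The 64 regions of at least 2 libraries became 42 with scores of at least 5, 19 with all 3 libraries required, and 29 to 36 when 1 library was left out, fewest without replicate 3. The 41 genes with such a region within 5 kb became 27 with scores of at least 5, 14 with all 3 libraries, and 14 to 27 when 1 library was left out. The 267 genes with a summit of any library became 80 to 259 when 1 library was left out, with 80 without replicate 3. The bin with the most summits started at 40 Mb, at 70 Mb without the summits between 46 and 51 Mb, at 60 Mb in bins of 20 Mb, and at 40 to 70 Mb when 1 library was left out, with 70 without replicate 2.

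No paired analysis was possible because the 3 libraries form 1 group, which leaves no second group of samples to pair by replicate number. The arm differences were taken within each library. Depth is unknown, and the 17 and 18 summits on 5p in replicates 1 and 2 give wide intervals.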
